A study of Mus musculus with 24 samples.

Results

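Cep290, Mme, Penk, Gchfr, Ppcdc, Coch and Angptl7 were examined as genes with more signal after loss of the transcription factor E4F1 in mouse embryonic fibroblasts. The symbols were picked from what the authors' deposited tables list for knockout against control, so these knockout values chose the members and are given as a description, with no test. The members are 7 of the 4414 genes that could be named on the array, and 33 reporters (probes) on the array carry their names. The cells came from 13.5-day embryos of mixed C57BL/6 and 129Sv/J strain and were all p53-/-. Controls were E4F1 +/- and had been E4F1 +/flox, and knockout cells were E4F1 -/- and had been E4F1 -/flox. All were collected 3 days after infection with a retrovirus that carries CRE recombinase and removes itself, so controls and knockouts both received CRE. The comparison was made without a further oncogene (p53-/-) and after infection with a retrovirus for activated Ha-RasV12 (Ha-RasV12), and no label says whether the Ha-RasV12 cells are clones. There were 4 groups of 6 samples, made of 3 replicates labelled with both Cy3 and Cy5, on 12 two-colour arrays that each held a control and a knockout sample of 1 replicate letter.

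E4F1 is a zinc finger protein, first described through the adenovirus E4 promoter, that binds sites resembling those of ATF and CREB and is needed for proliferation and mitochondrial pyruvate metabolism in dividing cells. The 7 genes belong to no common pathway. Cep290 encodes a protein of the centrosome and of the ciliary transition zone, the gate at the base of the primary cilium. Mme encodes neprilysin, a membrane peptidase that cleaves enkephalins, and Penk encodes the precursor of those enkephalins. Gchfr encodes the feedback regulator of GTP cyclohydrolase, the first enzyme of tetrahydrobiopterin synthesis, and Ppcdc encodes a decarboxylase of coenzyme A synthesis. Coch and Angptl7 encode secreted proteins: cochlin, a matrix protein of the inner ear, and an angiopoietin-like protein known from the eye.

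Values are log2 of the normalized intensity that the authors deposited for each dye channel. A probe was called above background where it exceeded the 95th percentile of the 5000 random-sequence probes of its sample, which lay between 6.24 and 7.13 (log2 intensity). By this measure 40.3% to 46.9% of the other 132488 probes were above background. The precision is limited by the number of arrays and, for Mme and for Coch in Ha-RasV12 controls, by signal near background. E4f1 checked the labels. By its brightest reporter (BC046459P02453) replicates A, B and C of the p53-/- controls measured 7.95, 7.62 and 8.05 and those of the knockouts 6.57, 6.69 and 6.52. In Ha-RasV12 cells the controls measured 8.70, 8.23 and 7.95 and the knockouts 6.74, 6.08 and 6.09, so every knockout replicate was below every control replicate in both backgrounds. In the knockouts 2 of 6 p53-/- samples and 3 of 6 Ha-RasV12 samples were above background for it. No source used here says whether the reporter lies inside the floxed segment. Of 10 fibroblast marker genes 6 could be named, and 6 were above background in all 24 samples. Among markers of other cell types Fabp4 and Sox9 were also above background in all 24 samples. Ptprc, Epcam, Map2, Acta1 and Des were above background in some samples and not in others, and no endothelial marker could be named. The knockout effect was less repeatable in Ha-RasV12 cells: over 57111 probes above background the median SD of the replicate differences was 0.16 (log2) in p53-/- and 0.44 in Ha-RasV12 cells.

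By background the members fell into 2 sets. Cep290 and Mme were higher in knockout cells of both backgrounds. Penk, Gchfr, Ppcdc, Coch and Angptl7 were listed as higher in p53-/- cells and not in Ha-RasV12 cells. In the authors' deposited limma table for p53-/- cells 24 of the 33 reporters were listed as higher and 0 as lower, beside 0.183% of all probes listed as higher. These were 4 of 6 Cep290 reporters, 4 of 6 Mme reporters, all 3 of Penk, all 6 of Gchfr, 1 of 6 of Ppcdc, all 3 of Coch and all 3 of Angptl7. In the authors' deposited limma table for Ha-RasV12 cells 9 reporters were listed as higher, beside 3.14% of all probes, and they were all 6 of Cep290 and 3 of 6 of Mme. Since these tables chose the members, nothing is read from the distance to all probes, and the difference between backgrounds in the knockout effect was not tested.

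The authors' deposited lists made with SAM, a permutation method, at a false discovery rate of 5% held 26 reporters as higher in p53-/- cells (all probes 0.411%) and 10 in Ha-RasV12 cells (all probes 6.12%). Relative to limma they added the remaining 2 Cep290 reporters in p53-/- cells and 1 Mme reporter in Ha-RasV12 cells. They also held 2 reporters as lower, Ppcdc BC089351P02612 in p53-/- cells (-0.59 in the authors' deposited table) and Gchfr BC132450P00465 in Ha-RasV12 cells (-1.53 in the authors' deposited table).

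Array by array, 27 of the 33 reporters were higher in the knockout channel on all 6 arrays in p53-/- cells (2.86% of all probes) and 11 in Ha-RasV12 cells (5.14% of all probes). The 11 were all 6 of Cep290, 4 of Mme and 1 of Ppcdc, BC089351P02442, which was above background in 0 of 12 Ha-RasV12 samples. Levels overlapped far more than differences did, because the replicates started from different levels. All 6 knockout samples exceeded all 6 control samples for 7 reporters in p53-/- cells (0.0898% of all probes) and for 8 in Ha-RasV12 cells (1.35% of all probes). In Ha-RasV12 cells those 8 were the 6 of Cep290 and 2 of Mme.

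**Figure D1:**
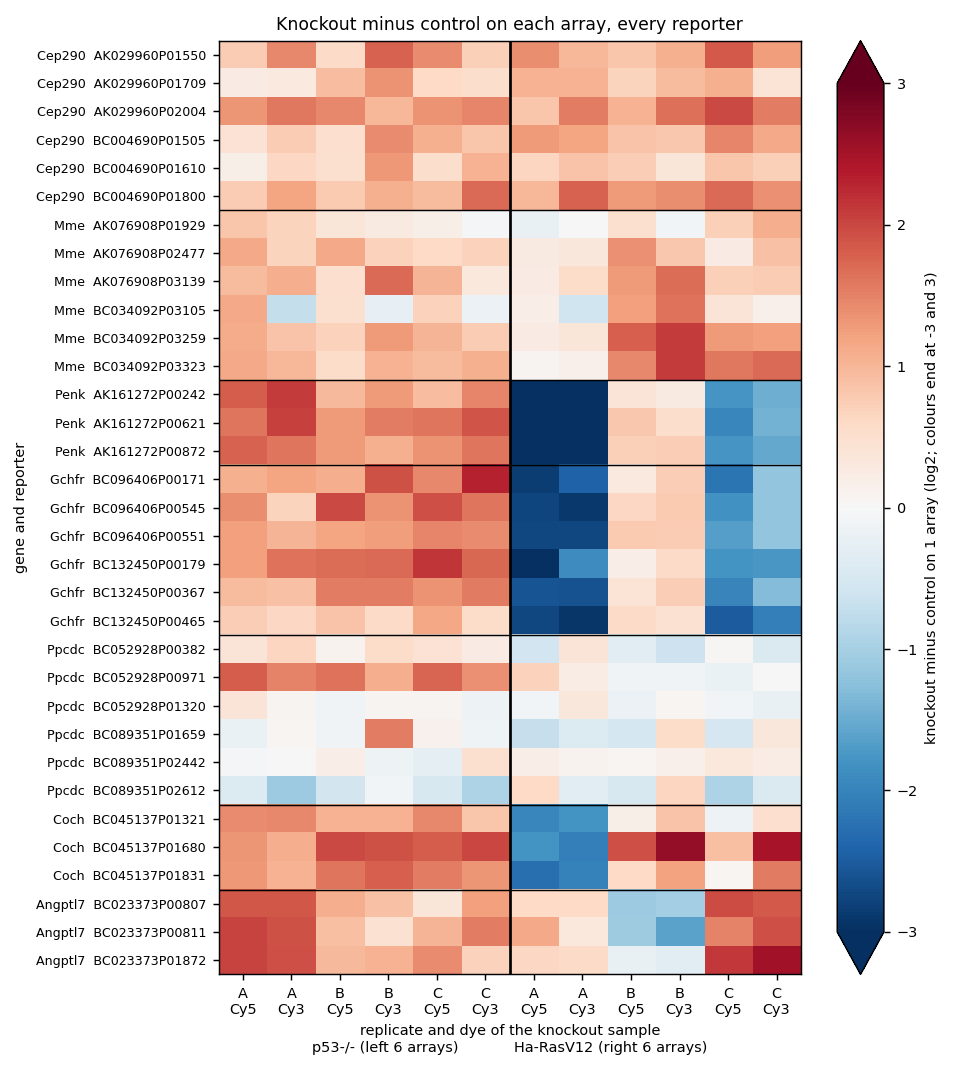
Knockout minus control (log2) on each of the 12 arrays for all 33 reporters, with columns named by replicate and by the dye of the knockout sample. Cep290 is higher on all 12 arrays for all 6 of its reporters, while Penk and Gchfr change from higher in p53-/- cells to lower in replicates A and C of Ha-RasV12 cells.

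Cep290 was higher in the knockout of every replicate in both backgrounds. Its brightest reporter (BC004690P01800) measured 7.44, 7.82 and 7.52 (log2 intensity, replicates A, B and C) in p53-/- controls and 8.42, 8.74 and 8.83 in p53-/- knockouts. In Ha-RasV12 cells it measured 8.21, 8.14 and 8.32 in controls and 9.59, 9.48 and 9.86 in knockouts. All 6 knockout samples were above all 6 control samples in each background. The difference was 1.07 ± 0.21 (log2, SD, n = 3) in p53-/- cells, or 2.10-fold, and 1.42 ± 0.10 (SD, n = 3) in Ha-RasV12 cells, or 2.67-fold.

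The other Cep290 reporters went the same way by different amounts. Over all 6, the mean difference ran from 0.66 to 1.37 in p53-/- cells and from 0.69 to 1.43 in Ha-RasV12 cells. Reporter AK029960P02004 had the highest value in both. The reporters with the lowest values in p53-/- cells, AK029960P01709 and BC004690P01610, were the 2 that the limma table did not list there. Ordered by level, the groups ran from p53-/- controls (7.59 ± 0.20, SD, n = 3) through Ha-RasV12 controls (8.22 ± 0.09) and p53-/- knockouts (8.66 ± 0.22) to Ha-RasV12 knockouts (9.64 ± 0.19), and the replicates of neighbouring groups did not overlap. Levels of different arrays were compared as deposited. Fewer cells of a type and less RNA per cell cannot be told apart in RNA from whole cultures.

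The window before the Cep290 start site is shown because Cep290 was higher in both backgrounds and E4F1 is known to bind TGACGT-like sites. It lies on the plus strand at chr10:100487332-100487581 (250 bases, RefSeq, GRCm38.p6), and capitals mark GACGT, the last 5 letters of TGACGT, at position -153 from the start site.
Cep290: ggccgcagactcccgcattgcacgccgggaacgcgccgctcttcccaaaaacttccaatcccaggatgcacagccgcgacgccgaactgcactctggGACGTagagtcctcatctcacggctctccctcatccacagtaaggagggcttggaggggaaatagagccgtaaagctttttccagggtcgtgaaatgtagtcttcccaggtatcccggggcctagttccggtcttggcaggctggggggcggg

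Mme was higher in both backgrounds on levels that differed between replicates. Its brightest reporter (BC034092P03259) measured 9.80, 6.58 and 7.17 in replicates A, B and C of p53-/- controls and 10.78, 7.56 and 8.06 in the knockouts. Replicate A stood well above the others in both genotypes, so the groups overlapped although the knockout was higher in every replicate. The differences were 0.98, 0.98 and 0.90, with a mean of 0.95 ± 0.05 (SD, n = 3), or 1.93-fold.

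In Ha-RasV12 cells Mme was near background. The same reporter measured 6.44, 6.40 and 6.05 in controls, where 1 of 6 samples was above background, and 6.74, 8.34 and 7.30 in knockouts, where 6 of 6 were. The replicate differences were 0.29, 1.95 and 1.25, with a mean of 1.16 ± 0.83 (SD, n = 3), so the size of this difference was poorly determined. With values below background set to the background of their samples the mean was 0.91. It was 1.60 without replicate A and 0.77 without replicate B. Over the 6 Mme reporters the mean difference ran from 0.19 to 0.95 in p53-/- cells and from 0.34 to 1.18 in Ha-RasV12 cells. The 2 dimmest, AK076908P01929 and BC034092P03105, were in no deposited table and were above background in at most 2 of the 6 samples of any group. By level Mme ran from Ha-RasV12 controls (6.30 ± 0.22) through Ha-RasV12 knockouts (7.46 ± 0.81) and p53-/- controls (7.85 ± 1.72) to p53-/- knockouts (8.80 ± 1.73), and the last 3 groups overlapped.

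**Figure D2:**
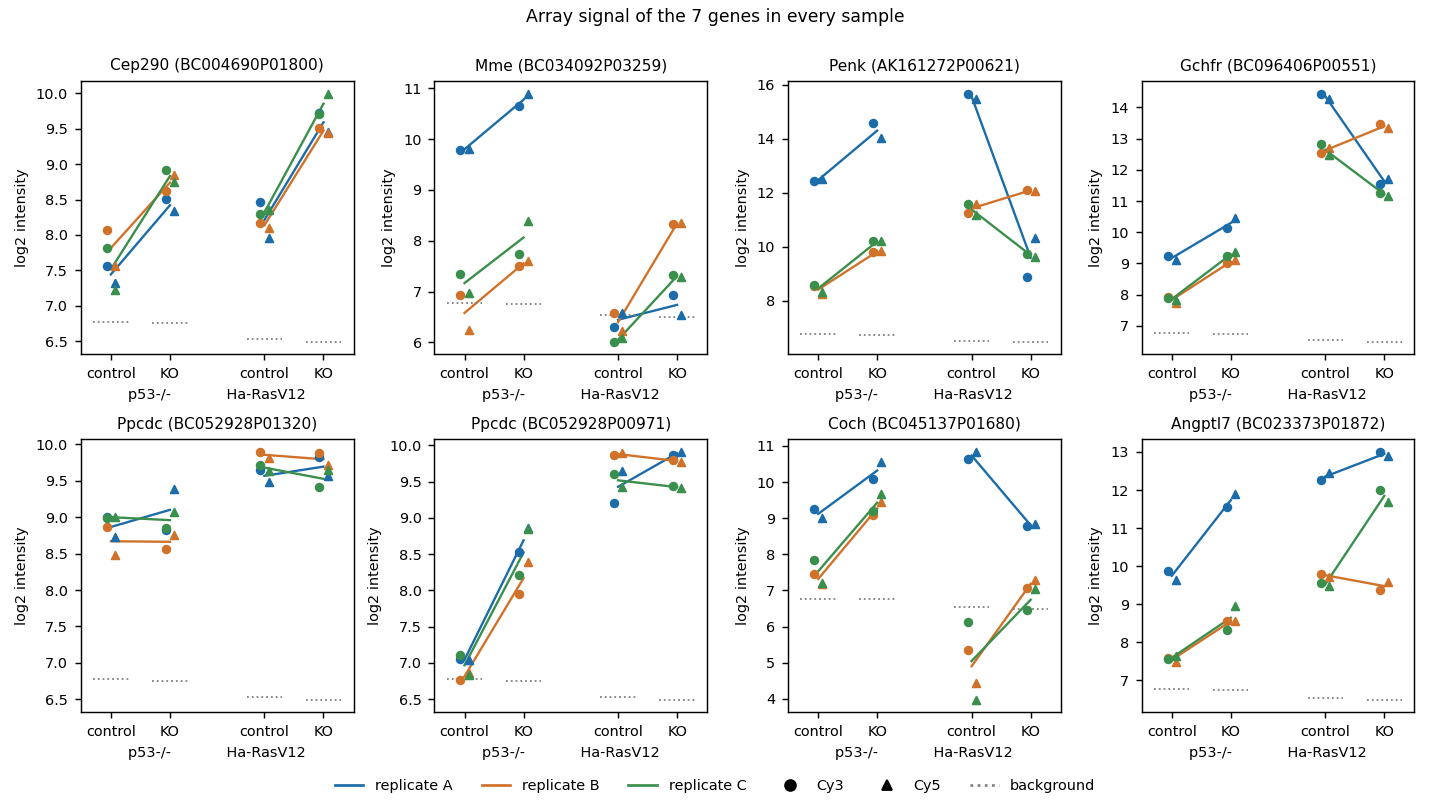
Log2 intensity of the brightest reporter of each gene, and of the listed Ppcdc reporter, in all 24 samples, with lines joining the dye-averaged control and knockout (KO) of a replicate and dotted lines for the background of each group. The Cep290 lines go upward in every replicate of both backgrounds. In Ha-RasV12 cells the lines of Penk, Gchfr, Coch and Angptl7 go up in some replicates and down in others.

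Penk was higher in all 3 replicates of p53-/- knockouts and split in Ha-RasV12 cells. Its brightest reporter (AK161272P00621) measured 12.47, 8.42 and 8.46 in p53-/- controls and 14.30, 9.83 and 10.20 in the knockouts. The differences were 1.83, 1.41 and 1.74, with a mean of 1.66 ± 0.22 (SD, n = 3), or 3.16-fold. Replicate A was again the highest in both genotypes, so the groups overlapped.

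In Ha-RasV12 cells Penk measured 15.56, 11.43 and 11.38 in controls and 9.60, 12.09 and 9.69 in knockouts. The replicate differences were -5.96, 0.67 and -1.69: replicate A was 62.4-fold lower and C 3.23-fold lower in the knockout, while B was 1.59-fold higher. Their SD of 3.36 was larger than that of 99.9% of the probes above background. The mean was -2.33, and -0.51 without replicate A. Its 3 reporters gave the same signs in every replicate. By level the groups overlapped throughout, from p53-/- controls (9.78 ± 2.33) through Ha-RasV12 knockouts (10.46 ± 1.41) and p53-/- knockouts (11.44 ± 2.48) to Ha-RasV12 controls (12.79 ± 2.40).

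Gchfr showed the same replicate pattern as Penk, on levels that set the backgrounds apart. Its brightest reporter (BC096406P00551) measured 9.17, 7.83 and 7.86 in p53-/- controls and 10.30, 9.06 and 9.29 in the knockouts. Replicate A of the controls was above replicate B of the knockouts, so the groups overlapped although each replicate was higher in the knockout, by 1.12, 1.22 and 1.43. The mean was 1.26 ± 0.16 (SD, n = 3), or 2.39-fold, and the 6 reporters ran from 0.75 to 1.68.

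In Ha-RasV12 cells Gchfr measured 14.36, 12.62 and 12.64 in controls and 11.63, 13.40 and 11.22 in knockouts. Replicates A and C were lower in the knockout, by 2.72 and 1.42, and B was higher by 0.77. The mean was -1.12 ± 1.77 (SD, n = 3), and -0.32 without replicate A. All 6 reporters had these signs, with means from -1.53 to -1.12. By level Gchfr ran from p53-/- controls (8.29 ± 0.77) and p53-/- knockouts (9.55 ± 0.66) to Ha-RasV12 knockouts (12.08 ± 1.16) and Ha-RasV12 controls (13.21 ± 1.00). Control and knockout overlapped within each background, while all 6 replicate values of Ha-RasV12 cells were above all 6 of p53-/- cells.

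Ppcdc rested on 1 reporter. Reporter BC052928P00971 measured 7.05, 6.82 and 6.97 in p53-/- controls, close to background, and 8.69, 8.17 and 8.52 in the knockouts. The differences were 1.64, 1.35 and 1.55, with a mean of 1.52 ± 0.15 (SD, n = 3), or 2.86-fold, and all 6 knockout samples exceeded all 6 controls. The brightest Ppcdc reporter (BC052928P01320) was not higher in this way: it measured 8.87, 8.67 and 9.00 in p53-/- controls and 9.10, 8.66 and 8.96 in the knockouts, with differences of 0.23, -0.01 and -0.04.

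Among the other Ppcdc reporters BC052928P00382 was higher by 0.40 ± 0.11 (SD, n = 3) in p53-/- cells, BC089351P02612 was at -0.59 ± 0.24, and BC089351P02442 was above background in 1 of 12 p53-/- samples. For BC089351P02612 only 2 of 6 p53-/- knockout samples were above background. With values below background set to the background of their samples its differences were -0.52, -0.0015 and -0.69. The mean over all 6 reporters was 0.27. In Ha-RasV12 cells BC052928P00971 measured 9.43, 9.88 and 9.52 in controls and 9.89, 9.78 and 9.42 in knockouts. The groups overlapped, and the differences were 0.46, -0.10 and -0.09. By level this reporter ran from p53-/- controls (6.94 ± 0.12) and p53-/- knockouts (8.46 ± 0.27) to Ha-RasV12 controls (9.61 ± 0.24) and Ha-RasV12 knockouts (9.70 ± 0.24), of which the last 2 overlapped.

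The windows before the Gchfr and Ppcdc start sites are shown because these 2 genes had reporters that passed the test of level between backgrounds under all 14 alternatives. The Gchfr window lies on the plus strand at chr2:119167538-119167787 and the Ppcdc window on the minus strand at chr9:57439737-57439986 (250 bases each, RefSeq, GRCm38.p6). Capitals mark TGACG, the first 5 letters of TGACGT, at position -113 of Ppcdc, and the Gchfr window held none of the letters searched.
Gchfr: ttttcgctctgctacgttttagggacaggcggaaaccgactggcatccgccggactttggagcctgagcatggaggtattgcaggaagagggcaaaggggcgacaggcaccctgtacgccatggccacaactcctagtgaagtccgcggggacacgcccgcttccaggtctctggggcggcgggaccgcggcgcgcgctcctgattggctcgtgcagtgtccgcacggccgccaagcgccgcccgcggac
Ppcdc: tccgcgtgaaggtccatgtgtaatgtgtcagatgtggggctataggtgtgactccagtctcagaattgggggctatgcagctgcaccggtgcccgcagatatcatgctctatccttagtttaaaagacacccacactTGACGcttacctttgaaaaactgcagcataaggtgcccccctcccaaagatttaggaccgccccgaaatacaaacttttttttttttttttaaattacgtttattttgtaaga

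TGACGT was searched on both strands of windows from 250 bases before to 50 after each start site, as were its first 5 and last 5 letters, so that a match of the whole also counts for both parts. TGACGT was in 0 windows of the 6 members with an entry (Penk had none), beside 7.51% of 32851 mouse windows. The first 5 letters were in 1 member window (20.8% of all) and the last 5 in 1 (15.9% of all). These are matches of letters in short windows and not binding sites.

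Coch was higher in every p53-/- knockout replicate. Its brightest reporter (BC045137P01680) measured 9.12, 7.32 and 7.53 in p53-/- controls and 10.32, 9.27 and 9.43 in the knockouts. The replicates of the 2 genotypes did not overlap, with differences of 1.20, 1.95 and 1.90 and a mean of 1.68 ± 0.42 (SD, n = 3), or 3.21-fold. Single samples overlapped for this reporter, while for BC045137P01321 and BC045137P01831 all 6 knockout samples were above all 6 controls.

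In Ha-RasV12 cells Coch measured 10.73, 4.90 and 5.05 in controls and 8.80, 7.19 and 6.74 in knockouts. The controls of replicates B and C were not above background, while both control samples of replicate A and all 6 knockout samples were. Replicate A was lower in the knockout by 1.93. Replicates B and C were higher by 2.28 and 1.69 as measured, sizes that rest on controls below background, and by at least 0.64 and 0.39 with those controls set to the background of their samples. The mean was 0.68 ± 2.28 (SD, n = 3) as measured and -0.30 with the background in place of lower values, so it had no settled sign. As measured it was -0.12 without replicate B, and the other 2 reporters had means of -0.40 and -0.14 with the same signs in each replicate. By level Coch ran from Ha-RasV12 knockouts (7.58 ± 1.08) through p53-/- controls (7.99 ± 0.98), which overlapped, to p53-/- knockouts (9.67 ± 0.57). The Ha-RasV12 controls have no settled place in this order, with replicate A above every other value and B and C below background (mean 6.89 ± 3.32 as measured, 7.87 with lower values set to background).

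Angptl7 was higher in every p53-/- knockout replicate, most in replicate A. Its brightest reporter (BC023373P01872) measured 9.75, 7.54 and 7.60 in p53-/- controls and 11.73, 8.55 and 8.65 in the knockouts, and the control of replicate A was above the knockouts of B and C. The differences were 1.99, 1.01 and 1.05, with a mean of 1.35 ± 0.55 (SD, n = 3), or 2.55-fold. In Ha-RasV12 cells it measured 12.35, 9.76 and 9.52 in controls and 12.95, 9.48 and 11.85 in knockouts. Replicates A and C were higher by 0.60 and 2.32 and B was lower by 0.29, and the groups overlapped. The mean was 0.88 ± 1.33 (SD, n = 3), and 0.16 without replicate C, and the other 2 reporters had means of 0.48 and 0.37 with the same signs. By level Angptl7 ran from p53-/- controls (8.29 ± 1.26) through p53-/- knockouts (9.64 ± 1.81) and Ha-RasV12 controls (10.55 ± 1.57) to Ha-RasV12 knockouts (11.42 ± 1.77), and neighbouring groups overlapped.

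**Figure D3:**
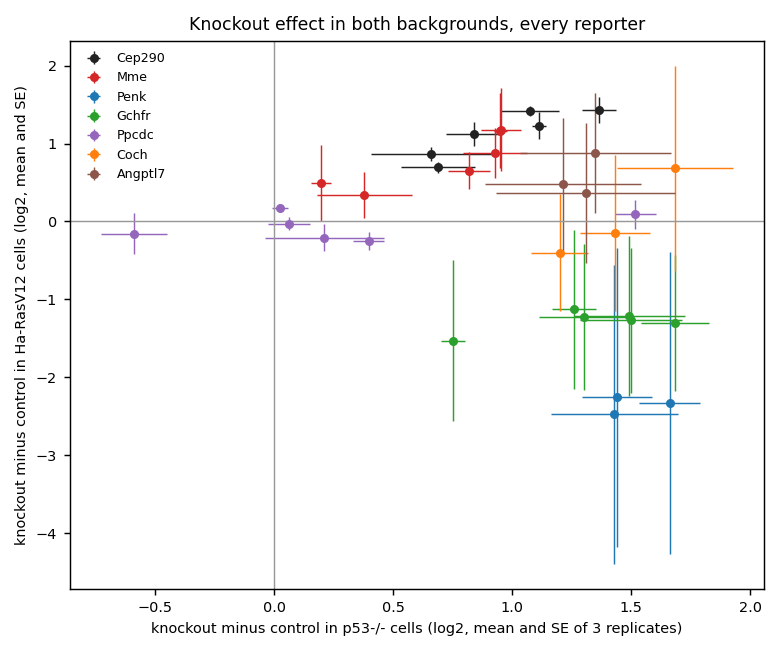
Mean knockout minus control (log2) in p53-/- cells against that in Ha-RasV12 cells for the 33 reporters, with bars for the SE of 3 replicates. Cep290, Mme and Angptl7 lie above 0 on both axes, with wider Ha-RasV12 bars for Angptl7 than for Cep290 or Mme. Penk and Gchfr lie below 0 on the Ha-RasV12 axis with wide bars, and Coch lies on both sides of 0 there. Ppcdc has 1 reporter at 1.52 apart from its other reporters.

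For Penk, Gchfr, Coch and Angptl7 the sign in each Ha-RasV12 replicate was shared by all reporters of the gene. Penk, Gchfr and Coch were lower in the knockout of replicate A for each of their reporters, and Penk and Gchfr were lower in replicate C as well. Replicate B was higher for Penk, Gchfr and Coch and lower for Angptl7. The SD of the Ha-RasV12 replicate differences was above that of at least 95.8% of the probes above background for each reporter of these 4 genes. For the 6 Cep290 reporters it was above that of at most 29.2%. In p53-/- cells the SD was above that of 98.3% to 99.1% of these probes for Angptl7 and 7.2% to 96.0% for Cep290. There it was above that of 69.7% to 96.7% for Penk, 18.5% to 94.5% for Gchfr and 64.2% to 95.2% for Coch. The lists were made from these same arrays, so the dye values of listed reporters are a description and no check. Of the reporters listed by limma, 24 of 24 in p53-/- cells and 9 of 9 in Ha-RasV12 cells were higher in both dye orientations. Their orientations differed by at most 0.61 and 0.29 (log2). Reporters outside the lists could turn with the dye: Mme BC034092P03105 in p53-/- cells was at 0.76 with the knockout in Cy5 and -0.38 in Cy3.

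In size, other genes stood among the members. Among 94 named genes listed as higher in p53-/- cells in the authors' deposited limma table, ordered by each gene's largest listed value, Coch ranked 2, Gchfr 3, Penk 4, Ppcdc 5, Cep290 8, Angptl7 9 and Mme 20. The gene above Coch was Dnase1l2 (1.90 in the authors' deposited table) and the one below Mme (0.95) was Cadm1 (0.93 in the authors' deposited table). Among 1117 such genes in Ha-RasV12 cells Cep290 ranked 264 and Mme 424.

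The level in Ha-RasV12 against p53-/- cells, averaged over control and knockout, is a contrast other than the one that chose the members. It was tested with limma on 3 against 3 replicate means across all probes. It can be independent of the knockout contrast only where control and knockout vary equally. In Ha-RasV12 cells the SDs of controls and knockouts were 3.32 and 1.08 for Coch and 1.00 and 1.16 for Gchfr (brightest reporters). Of the 33 reporters 9 were higher in Ha-RasV12 cells (all probes 1.26%) and 1 was lower (all probes 2.86%) at an adjusted p under 0.05, and the median difference was 0.57 for the 33 and -0.14 for all probes. With each sample centred on its median, all probes split into 3685 higher and 2758 lower in place of 1665 and 3793, and quantile normalization gave 3076 and 3338. Each background has arrays of its own, so background and set of arrays cannot be told apart.

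Gchfr was higher in Ha-RasV12 cells by all 6 reporters. Its brightest reporter averaged 9.73, 8.44 and 8.57 in p53-/- replicates and 13.0, 13.01 and 11.93 in Ha-RasV12 replicates, with no overlap. The difference was 3.73 (log2, 95% interval 2.87 to 4.59), or 13.2-fold (limma, adjusted p = 0.00078), and 3.90 with each sample centred on its median. The 6 reporters ran from 3.22 to 3.96, and each passed the threshold under all 14 alternatives.

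Ppcdc was higher in Ha-RasV12 cells by its listed reporter BC052928P00971, with replicate means of 7.87, 7.49 and 7.75 against 9.66, 9.83 and 9.47. The difference was 1.95 (95% interval 1.53 to 2.38), or 3.87-fold (limma, adjusted p = 0.00057), and it passed under all 14 alternatives. The brightest Ppcdc reporter differed by 0.81 (limma, adjusted p = 0.038), past the threshold in 5 of 14 alternatives and lost without replicate A, B or C of p53-/- cells (adjusted p = 0.081, 0.15 and 0.12) or B of Ha-RasV12 cells (0.17). Reporter BC089351P02612 went the other way: it was above background in 7 of 12 p53-/- samples and in 0 of 12 Ha-RasV12 samples. Its measured means were 6.90 and 5.21. Their difference of -1.69 (limma, adjusted p = 0.0052) rests on Ha-RasV12 values below background. With these set to background the reporter was at least 1.31-fold lower in Ha-RasV12 cells, a bound that was not tested. The 6 Ppcdc reporters therefore did not share 1 direction between backgrounds, and their mean difference was -0.08. Reporter BC052928P00382 was higher by 0.49, which was not called. The mean includes BC089351P01659 (-1.56, not called), whose p53-/- replicate means of 7.07, 10.9 and 7.16 hold an outlying array in replicate B. It also includes BC089351P02442 (-0.50, not called), which like BC089351P02612 was above background in 0 of 12 Ha-RasV12 samples.

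Cep290 was higher in Ha-RasV12 cells by 0.80 (95% interval 0.39 to 1.21) for its brightest reporter (limma, adjusted p = 0.041), with replicate means of 7.93, 8.28 and 8.17 against 8.90, 8.81 and 9.09. This call held in 5 of 14 alternatives and was lost without replicate A, B or C of p53-/- cells (adjusted p = 0.14, 0.09 and 0.14) or B or C of Ha-RasV12 cells (0.11 and 0.077), and the other 5 Cep290 reporters, from 0.49 to 0.83, did not pass. The remaining members did not pass by any reporter. For the brightest reporters the limma difference was -1.45 for Mme (95% interval -2.95 to 0.06, adjusted p = 0.3), 1.01 for Penk (-1.17 to 3.20, adjusted p = 0.63), -1.59 for Coch (-3.55 to 0.36, adjusted p = 0.38) and 2.02 for Angptl7 (0.19 to 3.84, adjusted p = 0.23). These intervals are wide because the replicates of a background differed. Without replicate A of the p53-/- cells the Penk difference was 2.40 (limma, adjusted p = 0.033), and without replicate A of the Ha-RasV12 cells Coch passed as well (limma, adjusted p = 0.0019). The Coch value of -2.86 there rests on controls below background, and with these set to background it was -2.12. In knockout samples alone, all of them above background for it, Coch differed by -2.09 (limma, adjusted p = 0.032). With the replicate letter as a block, Angptl7 (limma, adjusted p = 0.00063) and Coch (0.0498) also passed. Whether letters pair across backgrounds is not in the labels.

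**Figure D4:**
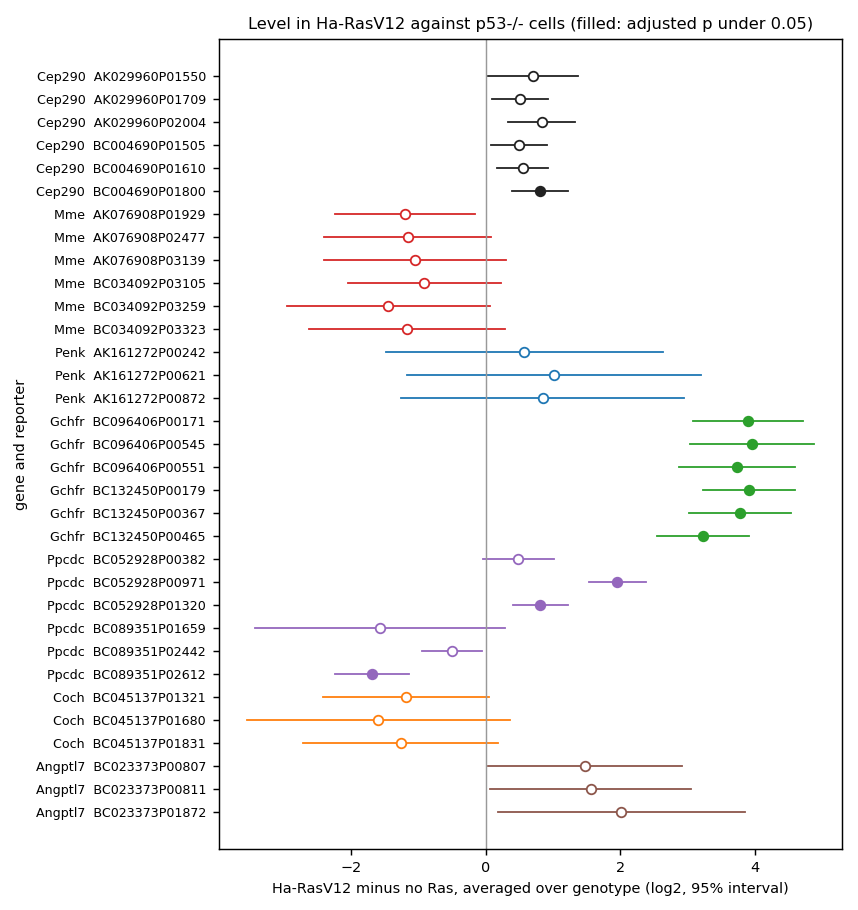
Ha-RasV12 minus p53-/- level (log2, averaged over control and knockout) for the 33 reporters, with 95% intervals from limma and filled points where the adjusted p is under 0.05. The 6 Gchfr reporters lie between 3.22 and 3.96, and the Ppcdc reporters lie on both sides of 0.

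For each member the named genes whose level was most like it were found by Pearson's r over the 12 dye-averaged samples, among 4413 genes, each by its brightest reporter. The 12 samples share arrays in pairs and fall into 2 backgrounds, so these values are a description. Cep290 was most like Dnase1l2 (r = 0.91), Dnase2a (0.90) and Ccdc61 (0.89), and Mme was most like Fzd1 (0.92), Zfp521 (0.92) and Adamtsl3 (0.91). Penk was most like Tmem53 (0.94), Mettl23 (0.92) and Crabp2 (0.91), and Coch was most like Serpinb8 (0.93), 1600014C10Rik (0.93) and Gga2 (0.91). Gchfr was most like Etv1 (0.97), Fgf10 (0.97) and Gm5454 (0.96), and Ppcdc was most like Scmh1 (0.96), Spink2 (0.95) and Psg16 (0.95). Angptl7 had the lowest values, with Wnk3 (0.89), Acot1 (0.88) and Gm13306 (0.86).

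Other genes of the members' pathways were looked up in 7 lists, and few could be named, mostly because a deposited table listed them, so their shares are no rates. In p53-/- cells the limma table listed 0 genes of the 7 lists, and the authors' deposited SAM list at 5% held Cep164 as lower by 2 reporters (-0.74 and -0.54). In Ha-RasV12 cells the tetrahydrobiopterin list had 1 of 9 genes named, Pcbd1, which recycles the cofactor (0.65 in the authors' deposited table). The coenzyme A list had 2 of 15 named and 1 listed, Aasdhppt, which transfers phosphopantetheine to carrier proteins (0.86 in the authors' deposited table). Of 14 neprilysin-like and enkephalin-cleaving peptidases 3 were named, and the authors' deposited table listed Npepps, a cytosolic aminopeptidase, as higher (1.34) and Lnpep, a membrane aminopeptidase, as lower (-0.69). Of the opioid and angiopoietin-like lists 0 genes were named.

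Of 30 ciliary transition zone genes and CEP290 partners 7 were named. In Ha-RasV12 cells the authors' deposited table listed the transition zone gene Tmem231 (1.08) and the centriole appendage gene Cep164 (0.69) as higher and the chaperonin-like gene Mkks (-0.73) as lower. Of 14 genes that share the LCCL or von Willebrand A domains of Coch 7 were named, and the authors' deposited table listed Crispld2 (2.43), the matrilin gene Matn2 (2.24) and Dcbld2 (0.99) as higher in Ha-RasV12 knockouts. In the limma fit made here with dye orientations averaged, which called 0.138% of all probes in p53-/- and 0.211% in Ha-RasV12 cells, Crispld2 alone of the 7 lists passed for knockout against control (2.32 in Ha-RasV12 cells, adjusted p = 0.032). Between backgrounds the limma fit gave Matn2 as higher in Ha-RasV12 cells (2.10, adjusted p = 0.024) and Crispld2 (-2.66, adjusted p = 0.0043), Col6a1 (-1.36, adjusted p = 0.024), Col6a2 (-1.40, adjusted p = 0.019) and, by 1 reporter, Cep164 (-1.49, adjusted p = 0.0048) as lower.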

How the data were processed

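Total RNA of 24 samples was measured on 12 two-colour arrays. The linear intensity values deposited by the authors hold 1 dye channel per sample; both channels of an array have nearly equal quartiles and different arrays do not. Per the file headers the authors deposited limma tables and SAM lists per background, with log2 fold changes, scores (moderated t and SAM statistics), p-values and q-values of knockout minus control. The submitters' processing notes name limma, and no source used here gives its version, the normalization steps or a genome build. Mean log2 differences of the value table equalled the deposited ones within 1e-05, and the deposited SAM standard error equalled that over 6 arrays, so dye swaps counted there as separate arrays. The limma tables imply 88581 and 91284 tested probes, which served for their shares of all probes, and 1 listed Ha-RasV12 probe without values was left out.

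Here intensities were log2 transformed and both dye orientations of a replicate averaged. limma 3.58.1 in R 4.3.3 (lmFit, eBayes, Benjamini-Hochberg over 132488 probes, threshold 0.05) fitted knockout against control per background with the shared arrays of a replicate letter as a block, and Ha-RasV12 against p53-/- cells on means of control and knockout. The letters pair samples through shared arrays, as the titles give. Deviations of a letter's control and knockout from their group means correlated at 0.70, 0.62 and 0.70 in p53-/- and at 0.26, -0.31 and 0.49 in Ha-RasV12 cells. P-values measure the spread between 3 replicates, which the labels call independent. Probes were named by accession through the deposited tables or the RefSeq table of GRCm38.p6, 17562 of 132488 in all. Each gene took its brightest reporter unless others are named. The named genes are the members, E4f1, the 3 most alike genes per member, listed or called genes of the pathway lists, and neighbours in rank. The members and the gene lists were chosen with earlier results of these data known. The fits were tested on simulated data. Alternatives were other normalizations, single dyes, brighter probes, other blocks, fewer replicates, the mean over reporters and, added after seeing the data, 6 arrays as 6 replicates and values below background set to it. Python 3.11.15 with pandas 2.3.3, scipy 1.17.1 and matplotlib 3.10.9 was used.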

Additional observations from a re-analysis of the deposited data

Results flagged for a closer look

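Within groups of 6 samples, 5 of 132 combinations of reporter and group had a sample far from the others by Dixon's test. The test's chance rate of about 1 in 20 is for independent values. It does not hold here, because the 6 samples are 3 replicates in both dyes. Cep290 AK029960P01550 measured 9.39 (log2 intensity) in the Cy5 sample of replicate C of the Ha-RasV12 knockouts, with the nearest sample at 8.63. Cep290 AK029960P01709 measured 6.32 in the Cy5 sample of replicate B of the p53-/- controls, with the nearest at 7.13. Mme AK076908P01929 measured 4.38 in the Cy5 sample of replicate C of the Ha-RasV12 controls, with the nearest at 5.61.

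Ppcdc BC089351P01659 measured 15.73 in the Cy3 sample of replicate B of the p53-/- knockouts, with the nearest at 7.27, and 14.2 in the Cy5 sample of replicate B of the p53-/- controls, with the nearest at 7.18. Both samples were the channels of 1 array. The cause was not tested.

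Ppcdc BC052928P00382 differed in sign between backgrounds in every replicate, with knockout minus control at 0.40 in p53-/- cells and -0.25 in Ha-RasV12 cells. This difference was not tested.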

How the results depend on the processing

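The count of probes called for knockout against control moved with most choices. In p53-/- cells 183 probes were called, 25 to 306 with 1 replicate left out (lowest without B, highest without C), 18 and 23 with the knockout in Cy5 or Cy3 only, 371 among the brighter 50% of probes, 17 with no replicate block, 28 with both backgrounds in 1 fit and 322 with 6 arrays as 6 replicates. In Ha-RasV12 cells 280 were called, 0 to 2013 with 1 replicate left out (limma, 0 without C and 2013 without A), 534 and 622 with 1 dye orientation, 3061 with both backgrounds in 1 fit and 4564 with 6 arrays as 6 replicates. Without the replicate block 258 were called there. In the Ha-RasV12 fit without C, 7021 of 132488 probes had an unadjusted p under 0.05 (limma), near the share that chance gives. Between backgrounds 5458 were called, 1816 to 7427 with 1 replicate left out, 2735 with the knockout in Cy3 only and 3294 in control samples only. No label says whether letters pair across backgrounds. Deviations of same-letter replicates correlated at 0.05, -0.07 and 0.22 between backgrounds. These values cannot decide it, since pairs known to share arrays in Ha-RasV12 cells correlated at 0.26, -0.31 and 0.49. By brightest reporters, replicate A was the highest control in both backgrounds for Mme, Penk, Gchfr, Coch and Angptl7, and not for Cep290 and Ppcdc. With the letter as a replicate block 6489 probes were called between backgrounds. The causes were not tested, beyond fewer samples or tests in the alternatives built so.

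The Ppcdc difference between backgrounds turned from 0.81 to -0.084 with the mean over its reporters, which disagree. That mean includes BC089351P01659 with its outlying array. It also includes BC089351P02442 and BC089351P02612, which were above background in no Ha-RasV12 sample. The Penk difference, not called, turned from 1.01 to -0.98 in knockout samples only, where the cause was not tested. Of the other alternatives for single members 18 lost a call, 5 gained one, 8 moved a value by over 1 SD and 310 did none of these, of which 6 changed the sign of a small or uncalled value of Ppcdc or Coch. Signal over background limits Mme, and Coch in Ha-RasV12 controls.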
